A study of Mus musculus with 39 samples.

Results

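The 42 genes described here are those of hepatic stellate cells and of the extracellular matrix: collagens, contractile and filament genes, markers of resting stellate cells, receptors and growth factors, matrix glycoproteins and proteoglycans, proteases with their inhibitors, and crosslinking enzymes. They were taken from a list of gene symbols, and all 42 were found among the 55416 genes of the count table. Of these, 41 passed the filter on low counts that left 15296 genes for testing, and Timp1 did not. Bulk RNA was sequenced from snap-frozen livers of 39 male mice on the C57BL/6NTac background. The mice were littermates from crosses of heterozygous carriers of the allele CD163tm1(KOMP)Vlcg, and were either knockouts of Cd163, which encodes a scavenger receptor of macrophages, or wildtype. From 6 weeks of age they received, for 8 weeks, chow with plain drinking water (5 wildtype and 4 knockout mice) or Western diet plus fructose water (15 mice of each genotype). The labels name no Cre or tissue restriction of the knockout, and do not state that any mouse gave more than 1 library.

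Hepatic stellate cells lie between hepatocytes and the sinusoidal endothelium and store vitamin A as retinyl esters, which Lrat makes. When activated, they lose these stores, take on a contractile phenotype marked by Acta2, and deposit fibrillar collagens, and this is the main source of scar matrix in many liver diseases. TGF-beta and PDGF are the best known signals for that change, and lysyl oxidases crosslink the deposited collagen.

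Promoter windows of Lrat and Col15a1 are shown because these genes rose on the Western diet, and that of Col3a1 because it varied together with Col1a1 between single livers. Each is the 250 bases before the annotated start, 5′ to 3′ on the strand of the gene, from RefSeq on GRCm38.p6, with capitals for the matches to the motifs searched. Lrat lies at chr3:82903975-82904224 on the minus strand, Col15a1 at chr4:47207762-47208011 on the plus strand and Col3a1 at chr1:45311288-45311537 on the plus strand.
Lrat: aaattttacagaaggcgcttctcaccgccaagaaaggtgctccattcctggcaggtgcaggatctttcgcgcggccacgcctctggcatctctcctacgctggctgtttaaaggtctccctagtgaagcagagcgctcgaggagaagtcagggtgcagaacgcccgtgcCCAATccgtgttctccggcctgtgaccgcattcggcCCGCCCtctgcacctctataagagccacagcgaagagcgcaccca
Col15a1: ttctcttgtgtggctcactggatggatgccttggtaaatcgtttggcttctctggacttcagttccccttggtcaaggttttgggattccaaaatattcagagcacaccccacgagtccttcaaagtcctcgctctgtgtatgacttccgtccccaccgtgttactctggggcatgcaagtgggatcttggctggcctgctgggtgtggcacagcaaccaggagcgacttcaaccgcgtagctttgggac
Col3a1: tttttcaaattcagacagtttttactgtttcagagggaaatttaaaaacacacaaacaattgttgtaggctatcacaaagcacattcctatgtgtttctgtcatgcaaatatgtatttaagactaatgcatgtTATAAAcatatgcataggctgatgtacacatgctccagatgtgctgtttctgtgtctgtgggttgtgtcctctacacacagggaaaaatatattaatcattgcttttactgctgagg
The motifs searched on both strands were the CAAT box (CCAAT), the TATA box (here the letters TATAAA), the Sp1 type of GC box (GGGCGG), the half-site that many nuclear receptors bind (AGGTCA) and the CArG box of serum response factor, and no 2 of the matches printed overlap. The Lrat window holds CCAAT 76 bases before the start and GGGCGG on the opposite strand 39 bases before it, the Col3a1 window holds TATAAA 111 bases before the start, and the Col15a1 window holds none of these letters. Windows were at hand for 29 of the 42 genes. Of these 29 genes, 18 had GGGCGG, 10 had CCAAT, 4 had TATAAA, 1 had AGGTCA and 0 had a CArG box. Counted by window, these genes had 32, of which 19 held GGGCGG, 10 CCAAT, 4 TATAAA, 1 AGGTCA and 0 a CArG box. Among all 32851 windows of the same length, the shares were 32.7%, 33.8%, 12.4%, 14.0% and 1.47% in the same order. The start sites of Col4a1 and Col4a2, the chains of the main basement membrane collagen, lie 21 bases apart on opposite strands.

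Total counts per library ranged from 8578865 to 30438808, with a median of 14573193, and values are given as CPM (counts scaled to a common library total), with totals adjusted by TMM. Cd163 was at 2.59 to 15.8 CPM in wildtype and at 0 to 0.746 CPM in knockout livers. Wildtype chow A, knockout chow D, wildtype Western diet A and knockout Western diet M grouped with the opposite diet in 548 diet-responsive genes. These genes were called between diets in the fit without these 4 libraries. On the scale used, the other chow livers average 0 and the other Western diet livers average 1. The places of the 4 libraries were 0.92, 0.99, 0.22 and 0.17. The other chow livers lay between -0.062 and 0.106 and the other Western diet livers between 0.821 and 1.25. Because the genes were chosen on those other livers, their clean split by diet was built in and is no separate result. They were kept under their labels, and the results on diet are also given without them. Because these 4 libraries were recognised by genes that differ between diets, a larger diet difference without them is not independent evidence. All 12 markers of resting stellate cells (among them Lrat, Reln, Hand2 and Des) were in the table and passed the filter, with a summed level of 163 to 355 CPM over the 39 livers, so the defining markers of the cell type were present.

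Per kilobase of exon, the highest mean level over all 39 livers was that of Col18a1, the precursor of endostatin, at 191 CPM per kb. Igfbp7, an insulin-like growth factor binding protein, followed at 116, Fn1, the fibronectin gene, at 108 and Ecm1, a secreted matrix glycoprotein, at 75.6 CPM per kb. Fn1 and Col18a1 are also known products of hepatocytes, and bulk RNA does not separate these sources. Sparc (22.6), Dcn (21.7) and Bgn (20.9 CPM per kb) came next and differed from each other by less than their spread between livers of 1 group. The fibrillar collagen genes were lower, with Col3a1 at 5.37, Col1a1 at 4.44 and Col1a2 at 1.98 CPM per kb. The contractile genes Acta2 and Tagln were at 3.20 and 1.06 CPM per kb, and Lrat was at 4.01. Thbs1 (0.417), Timp1 (0.322) and Lox (0.211 CPM per kb) had the lowest levels of the 42.

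The first question is what the Western diet did to these genes, averaged over both genotypes. Lrat, Fn1 and Col15a1 rose, by 0.54 to 0.74 on the log2 scale, and none of the 41 tested members fell past the threshold of an adjusted p of 0.05 (edgeR's quasi-likelihood test, Benjamini-Hochberg over all tested genes). The 3 called members compare with a background of 14.6% of all tested genes called, and of 7.84% called higher. The 3 of 41 members called higher are a share near the latter, and the members called in either direction are a smaller share than among all genes. The other 38 members did not pass, their fold changes lay on both sides of 0, and the median over the 41 was 0.027 (log2) against -0.0019 over all tested genes. The fibrillar collagens, which define scar matrix, had 0 of 5 members called. In the same comparison, markers of other cell types were called too: 4 of 5 erythroid genes (median of the list 2.42 on the log2 scale), the adipocyte gene Cfd (the 1 tested of 4, at 3.37) and the Kupffer cell gene Cd5l (1 of 6) were higher, whereas Clec4g and Ehd3 of the sinusoidal endothelium (2 of 7) and the hepatocyte gene Cyp3a11 (1 of 5) were lower. The erythroid sum was 78.8 to 117 CPM on chow and 95.8 to 250 CPM on the Western diet, and the endothelial sum 246 to 358 and 157 to 410.7 CPM. The part of these cell types in the members' values was not tested.

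Among the markers of resting stellate cells, Lrat (lecithin retinol acyltransferase) was at 17.4, 20.4, 15.9, 11.9 and 11.4 CPM in wildtype chow A to E and at 10.5, 14.6, 10.2 and 26.3 CPM in knockout chow A to D. On the Western diet, Lrat was at 6.86, 21.3 and 33.3 CPM (lowest, median, highest) in wildtype and at 12.5, 23.5 and 34.4 CPM in knockout livers. The groups overlapped, but 14 of 15 wildtype and 14 of 15 knockout Western diet livers lay above the chow mean of their genotype. The exceptions to the split by diet included knockout chow D, the highest chow liver, and wildtype Western diet A, the lowest of all, which are among the 4 livers out of place by diet. Lrat rose by 0.59 ± 0.17 (log2 fold change ± SE; adjusted p = 0.0194, edgeR), from 15.4 ± 3.79 CPM (SD, n = 5) in wildtype and 15.4 ± 7.56 (n = 4) in knockout chow livers to 22.5 ± 6.53 and 24.05 ± 5.96 (n = 15 each). In bulk RNA, more cells of a type and more RNA per cell cannot be told apart. Without the 4 libraries Lrat was higher by 0.85 ± 0.15 (adjusted p = 7.42e-05, edgeR). The call of Lrat was lost without knockout chow A (adjusted p = 0.0648), B (0.0646) or C (0.0758), without the 7 wildtype livers with high acute phase genes (0.0621) and with no filter on low counts (0.0557). Reelin (Reln), a secreted glycoprotein of resting stellate cells, was at 39.8, 48.2, 30.2, 29.7 and 44.3 CPM in wildtype chow A to E, and at 40.6, 31.1, 28.1 and 45.9 CPM in knockout chow A to D. It spanned 31.1, 43.7 and 57.4 CPM (lowest, median, highest) in wildtype and 30.5, 41.0 and 56.9 CPM in knockout Western diet livers, so that the diets overlapped widely. Its fold change of 0.19 ± 0.10 (log2) did not pass (adjusted p = 0.210, edgeR), and Hand2, a transcription factor of the same cells, had -0.11. Over the 12 markers of resting stellate cells, the diet fold change had a median of 0.047 (log2), with Lrat alone called.

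Fibronectin, which hepatocytes secrete into plasma and stellate cells into matrix, is encoded by Fn1. Fn1 was at 1079, 968, 693, 795 and 1349 CPM in wildtype chow A to E and at 895, 636, 861 and 1205 CPM in knockout chow A to D. On the Western diet it was at 758, 1376 and 1816 CPM (lowest, median, highest) in wildtype and at 693, 1253 and 2146 CPM in knockout livers. Although the groups overlapped, 14 of 15 livers of each genotype lay above the chow mean, and the lowest liver of each was again one of the 4 named above, wildtype A and knockout M. Fn1 rose by 0.54 ± 0.14 (log2 ± SE; adjusted p = 0.0117, edgeR), with a fold change of 0.52 ± 0.19 in wildtype and 0.56 ± 0.21 in knockout mice that passed in neither genotype alone.

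Col15a1, a collagen of the zone beneath basement membranes, was at 8.47, 6.47, 7.18, 4.29 and 14.1 CPM in wildtype chow A to E and at 3.46, 3.46, 6.10 and 8.15 CPM in knockout chow A to D. On the Western diet Col15a1 was at 7.01, 11.7 and 18.4 CPM (lowest, median, highest) in wildtype and at 5.45, 8.77 and 17.9 CPM in knockout livers. All 15 knockout and 14 of 15 wildtype Western diet livers exceeded the chow mean of their genotype, and 10 of 15 and 5 of 15 its highest chow liver, while wildtype chow A, C and E and knockout chow C and D lay inside the Western diet range of their genotype. Col15a1 rose by 0.74 ± 0.19 (log2 ± SE; adjusted p = 0.0111, edgeR). Without knockout chow B, the calls of Col15a1 (adjusted p = 0.0523) and Fn1 (0.0595) were lost along with that of Lrat, so that no member was called in that fit. Without knockout chow D, 5 members were called.

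**Figure D1:**
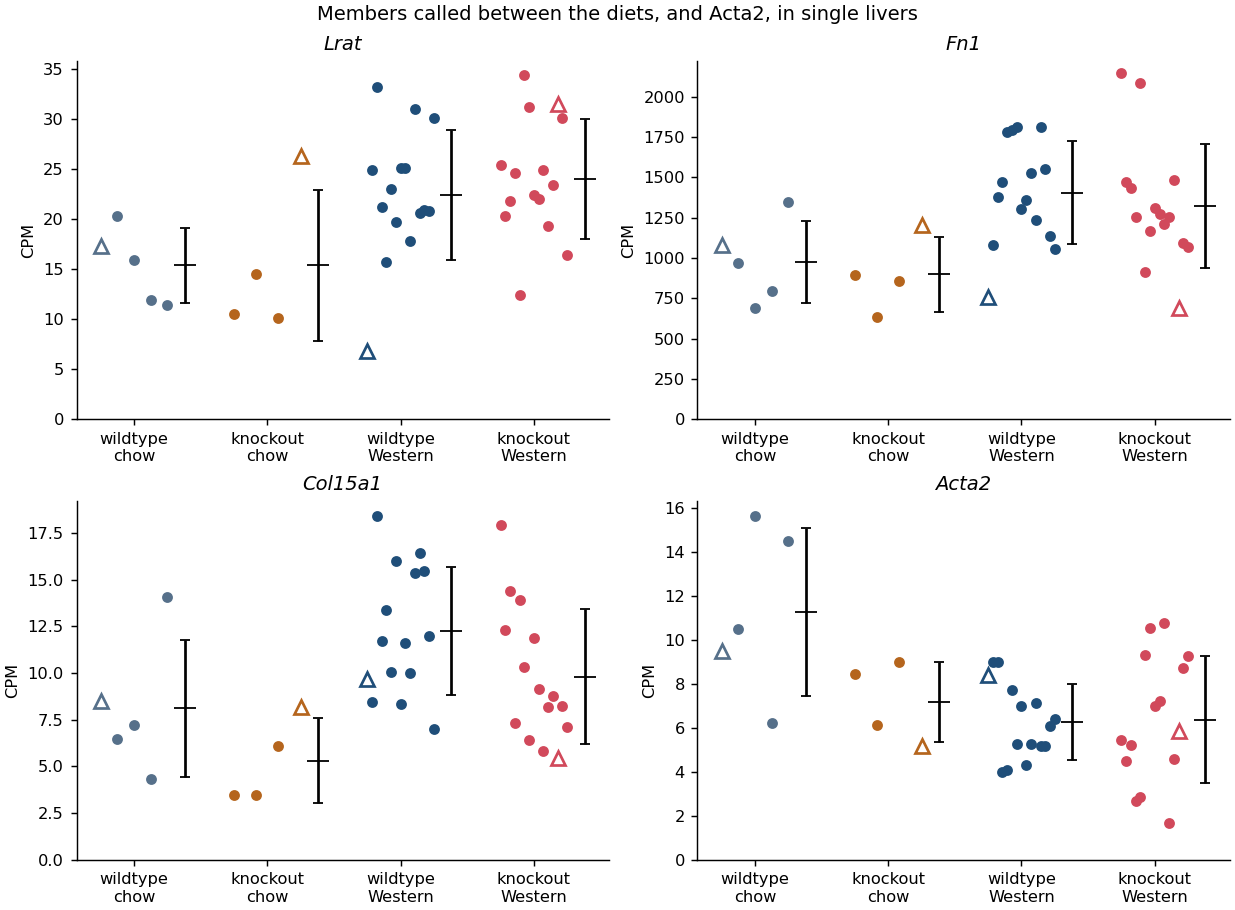
Level of Lrat, Fn1, Col15a1 and Acta2 in CPM (y axes, from 0) in each liver of the 4 groups (x axes), with the mean and SD of each group as a bar, and triangles for the 4 livers out of place by diet. Lrat, Fn1 and Col15a1 have higher Western diet means in both genotypes with overlapping points, and all 15 wildtype Western diet livers have less Acta2 than the wildtype chow mean of 11.2 CPM.

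The contractile and filament genes had negative diet fold changes in 4 of 4 members averaged over genotypes and in wildtype mice, and in 2 of 4 in knockout mice, with 0 called in each. Acta2, the smooth muscle actin that marks activated stellate cells and vessel walls, was at 9.49, 10.5, 15.6, 6.19 and 14.5 CPM in wildtype chow A to E and at 8.43, 6.11, 8.99 and 5.18 CPM in knockout chow A to D. On the Western diet Acta2 was at 3.98, 6.06 and 9.001 CPM (lowest, median, highest) in wildtype and at 1.67, 5.86 and 10.8 CPM in knockout livers. In wildtype mice, 0 of 15 Western diet livers exceeded the chow mean of Acta2 and 8 of 15 were below the lowest chow liver, whereas in knockout mice 6 of 15 exceeded the chow mean. The diet fold change of Acta2 was -0.84 ± 0.26 (log2 ± SE; adjusted p = 0.0850, edgeR) in wildtype, -0.17 ± 0.30 in knockout and -0.50 ± 0.20 (adjusted p = 0.0767) in both averaged, and none of these passed. By limma voom, the average over genotypes was -0.62 for Acta2 and was called (adjusted p = 0.0214).

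Tagln, transgelin, another smooth muscle gene, was at 3.33, 3.26, 3.47, 1.83 and 3.84 CPM in wildtype chow A to E and at 2.33, 1.90, 2.46 and 1.13 CPM in knockout chow A to D. In Western diet livers Tagln was at 0.949, 1.81 and 3.10 CPM (lowest, median, highest) in wildtype and at 0.927, 1.74 and 3.99 CPM in knockout mice. As for Acta2, 0 of 15 wildtype and 6 of 15 knockout Western diet livers lay above the chow mean. The fold change of Tagln was -0.70 ± 0.24 (log2 ± SE; adjusted p = 0.118, edgeR) in wildtype and 0.041 ± 0.28 in knockout mice. Vim, the filament vimentin of mesenchymal cells, was at 39.04, 34.9, 32.1, 22.0 and 43.2 CPM in wildtype chow A to E and at 24.9, 26.9, 29.3 and 29.5 CPM in knockout chow A to D. Its Western diet values were 16.7, 25.4 and 41.8 CPM (lowest, median, highest) in wildtype and 14.9, 28.1 and 64.1 CPM in knockout livers, which overlapped with chow in both genotypes. The diet fold change of Vim was -0.34 ± 0.24 (log2 ± SE) in wildtype and 0.13 ± 0.27 in knockout mice. The 6 smooth muscle markers, listed apart from the members, summed to 150 to 160 CPM in wildtype chow and to 133 to 207 CPM in wildtype Western diet livers, with 0 of 4 tested called. The median diet fold change of these 4 was -0.25 (log2) in wildtype and -0.00047 in knockout mice. The part of smooth muscle in the Acta2 values was not tested.

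In wildtype mice alone, 0 of 41 members were called between diets, against 1.39% of all tested genes, and 9 members had an unadjusted p under 0.05 (edgeR). Shares of all genes are of calls after adjustment, here and below, and are no background for counts of members by unadjusted p. DESeq2 called 1 member, Acta2, and limma voom called 3, Fn1 higher and Acta2 and Tagln lower. In knockout mice 0 of 41 members were called, against 0.00654% of all tested genes, with 4 at an unadjusted p under 0.05. The 2 smallest p values there belonged to Col15a1 (0.88 ± 0.29 on the log2 scale, adjusted p = 0.133, edgeR) and Col4a2 (0.53 ± 0.20, adjusted p = 0.162). DESeq2 called 0 members in knockout mice and limma voom called Lrat.

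Without the 4 libraries, more members passed and more of all genes did too. Fn1 and Lrat were then higher and Acta2 lower in wildtype mice, 3 of 41 members against 8.66% of all genes. Fn1, Lrat, Col15a1 and Col4a2 were higher in knockout mice, 4 of 41 members against 17.2%. Averaged over genotypes, Fn1, Lrat, Col15a1, Reln and Col4a2 were higher and Ecm1 and Acta2 lower, 7 of 41 members against 29.9%. In none of these was the share of members called above that of all genes.

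**Figure D2:**
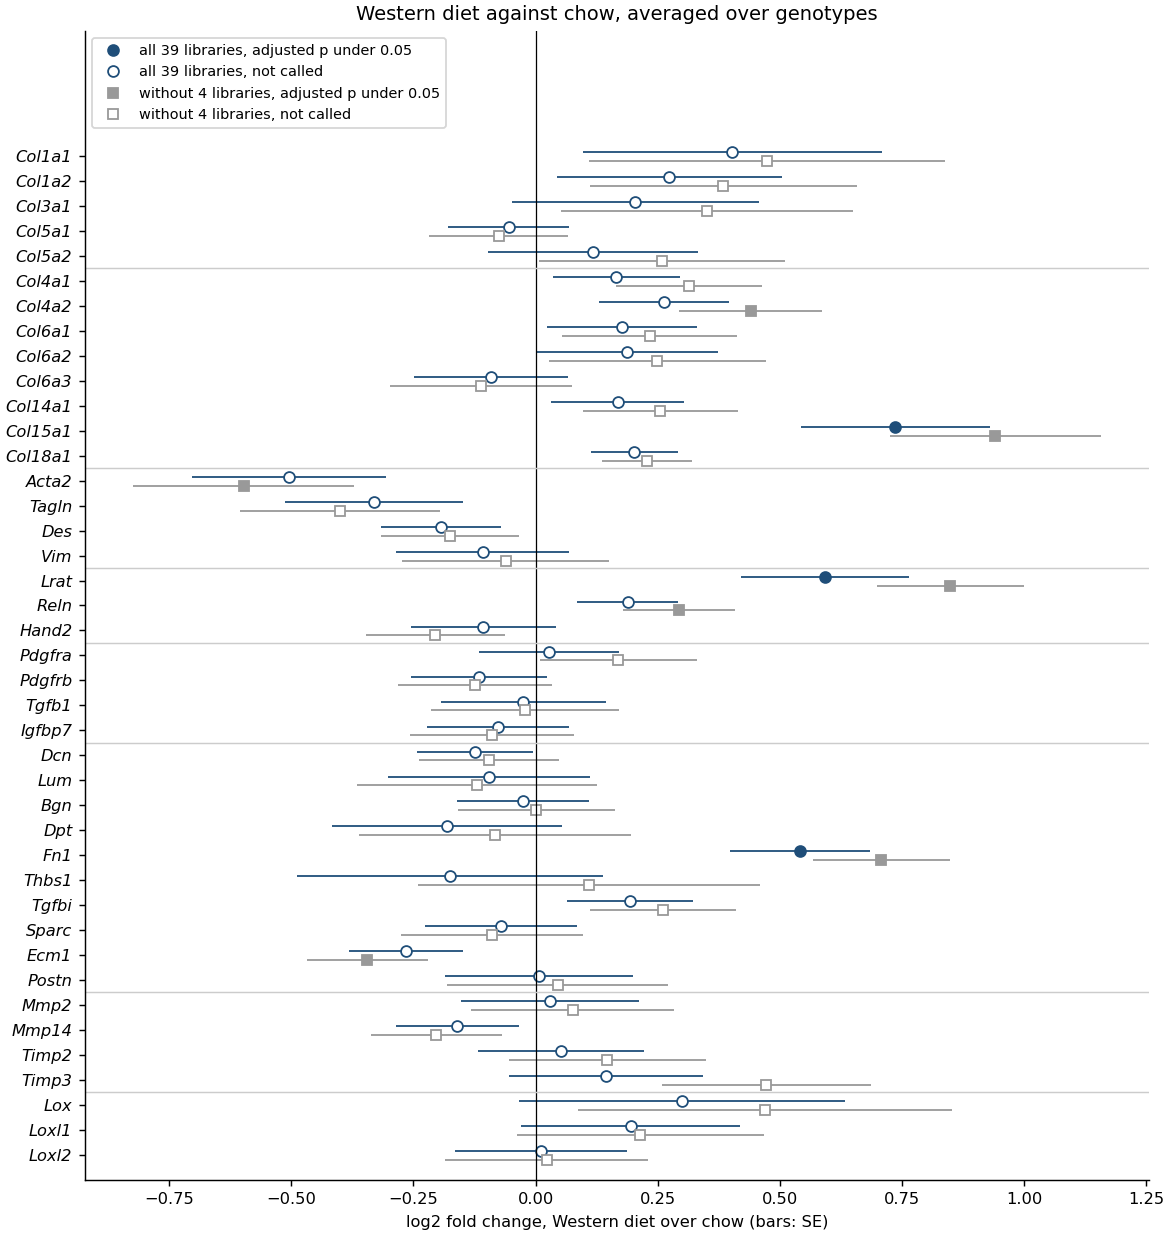
Log2 fold change of the Western diet over chow, averaged over genotypes (x axis, bars are SE), for the 41 tested members ordered by role (y axis), with all 39 libraries in circles and without 4 libraries in squares, filled where the adjusted p was under 0.05. Filled circles mark Col15a1, Lrat and Fn1 alone, all to the right of 0, and of the circles Acta2 lies farthest to the left at -0.50.

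Apart from Col15a1 and Fn1, the members of the remaining roles were not called between diets. Among the fibrillar collagens, Col1a1, a chain of type I collagen, was at 21.4, 37.7, 21.3, 17.6 and 30.4 CPM in wildtype chow A to E and at 22.0, 18.6, 17.3 and 26.3 CPM in knockout chow A to D. On the Western diet Col1a1 was at 13.5, 26.7 and 59.0 CPM (lowest, median, highest) in wildtype and at 9.95, 27.2 and 145 CPM in knockout livers. The Western diet range of Col1a1 thus enclosed that of chow in both genotypes, and the fold change was 0.40 ± 0.31 (log2 ± SE; adjusted p = 0.381, edgeR). Col3a1, the chain of type III collagen, was at 51.1, 58.3, 38.1, 34.9 and 59.3 CPM in wildtype chow A to E and at 50.6, 30.9, 37.8 and 63.1 CPM in knockout chow A to D. Its Western diet values were 27.8, 45.5 and 91.8 CPM (lowest, median, highest) in wildtype and 24.4, 50.1 and 212 CPM in knockout livers, also enclosing chow. For Col3a1 the fold change was 0.20 ± 0.25 (log2 ± SE; adjusted p = 0.613, edgeR).

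Col18a1, the most abundant member, was at 873, 1548, 1202, 1058 and 1322 CPM in wildtype chow A to E, and at 1312, 1163, 885 and 1448 CPM in knockout chow A to D. It was at 1154, 1412 and 1826 CPM (lowest, median, highest) in wildtype and at 962, 1353 and 1713 CPM in knockout Western diet livers, with a fold change of 0.20 ± 0.09 (log2 ± SE; adjusted p = 0.112, edgeR). In wildtype mice 14 of 15 Western diet livers lay above the chow mean of Col18a1, and in knockout mice 11 of 15. Ecm1, known in liver for holding TGF-beta latent, had a mean of 218 ± 49.5 CPM (SD, n = 5) and 220 ± 18.7 (n = 4) on chow and of 182 ± 38.04 and 182 ± 43.7 (n = 15 each) on the Western diet, in wildtype and knockout. The diet fold change of Ecm1 was -0.27 ± 0.12 (log2 ± SE; adjusted p = 0.116, edgeR), whereas limma voom called it at -0.36 (adjusted p = 0.0260).

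Among receptors and growth factors, Igfbp7 was at 113, 170, 137, 137 and 179 CPM in wildtype chow A to E and at 129, 155, 128 and 164 CPM in knockout chow A to D. Igfbp7 spanned 82.5, 137 and 212 CPM (lowest, median, highest) in wildtype and 62.0, 132 and 215 CPM in knockout Western diet livers, around the same centre. The PDGF receptor Pdgfrb (-0.12 ± 0.14 on the log2 scale) and the cytokine Tgfb1 (-0.02) showed no called difference either. Mmp14, a membrane-bound metalloproteinase, was at 24.9, 47.6, 34.0, 37.2 and 76.3 CPM in wildtype chow A to E and at 49.2, 26.5, 32.1 and 41.9 CPM in knockout chow A to D. On the Western diet Mmp14 spanned 28.0, 38.96 and 48.0 CPM (lowest, median, highest) in wildtype and 25.3, 32.1 and 56.2 CPM in knockout livers, and wildtype chow E stayed the highest of all. Loxl1, a lysyl oxidase that crosslinks elastin and collagen, was at 2.82, 5.79, 4.13, 5.91 and 7.94 CPM in wildtype chow A to E and at 4.59, 3.26, 4.15 and 6.21 CPM in knockout chow A to D. Loxl1 spanned 2.87, 5.66 and 9.66 CPM (lowest, median, highest) in wildtype and 2.37, 4.90 and 10.6 CPM in knockout Western diet livers, and the groups overlapped. Timp1, the inhibitor of metalloproteinases that did not pass the filter, had 0 to 11 counts per liver in 38 of the 39 livers and 91 counts (2.58 CPM) in knockout Western diet F.

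Of 104 other genes of matrix biology in the table, 95 were tested, and 9 were called between the diets averaged over genotypes. Among TGF-beta and PDGF signalling genes 3 of 28 rose: Tgfbr2, the type II receptor of TGF-beta (0.45 ± 0.11, log2 ± SE; adjusted p = 0.00774, edgeR), Itgb5, an integrin subunit (0.40 ± 0.11, adjusted p = 0.0153), and Pdgfc, a PDGF ligand (0.38 ± 0.13, adjusted p = 0.0423). Among enzymes of collagen folding and maturation 3 of 21 rose: Plod1, a lysyl hydroxylase (0.44 ± 0.08), Colgalt1, a collagen galactosyltransferase (0.46 ± 0.09), and P4hb, the protein disulfide isomerase that is also a subunit of prolyl hydroxylase (0.30 ± 0.08). Plod1 was also called in wildtype mice alone, at 0.41 ± 0.11 (adjusted p = 0.0476, edgeR). Of 11 other collagens Col23a1 rose by 0.70 ± 0.24 and Col7a1 fell by 0.75 on the log2 scale, while Col5a3 at 0.41 ± 0.15 did not pass. Of 14 other proteases and inhibitors Mmp19 rose (0.59 ± 0.15), whereas Mmp11 (-0.53) and Mmp15 (0.28) did not pass. Of 21 basement membrane and elastic fibre genes 0 were called, with Lama5 (-0.43), Fbln2 (0.51) and Fbln1 (0.68) at the smallest p values. The share of these genes called is again below the 14.6% of all tested genes.

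The second question is whether loss of Cd163 changed these genes. On the Western diet, 0 of 41 members were called between knockout and wildtype by edgeR, DESeq2 or limma voom, against 0.00654% of all tested genes. An unadjusted p under 0.05 was reached by 1 member. This was Postn, periostin, a matrix protein made by activated fibroblasts, which was at 2.51, 5.11 and 10.4 CPM (lowest, median, highest) in wildtype and at 4.14, 7.46 and 17.0 CPM in knockout livers. The genotypes overlapped for Postn, with 12 of 15 knockout livers above the wildtype mean. On chow Postn was at 6.74, 8.38, 6.36, 5.42 and 6.23 CPM in wildtype A to E and at 8.18, 5.77, 7.12 and 7.77 CPM in knockout A to D. The fold change of Postn on the Western diet was 0.55 ± 0.18 (log2 ± SE; adjusted p = 0.943, edgeR), and 0.43 ± 0.17 without knockout Western diet F. Col15a1 had the next smallest p, with a fold change of -0.32 ± 0.17, a sign opposite to that of its diet fold change.

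The count of signs on the Western diet changed when 1 liver was left out. With all livers, 25 of 41 members had a positive genotype fold change, with a median of 0.017 (log2) against 0.0091 over all tested genes. Without knockout Western diet F, 15 of 41 were positive and the median was -0.064. With all livers, all 5 fibrillar collagens had a positive value, of which Col1a1 was 0.32 ± 0.28 (log2 ± SE) with F and -0.068 ± 0.22 without it.

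On chow, the fitted level was higher in knockout than in wildtype livers for 9 of 41 members and lower for the rest, and 0 were called by edgeR, DESeq2 or limma voom, against 0.00654% of all tested genes. The median fold change was -0.16 (log2) against 0.0036 over all tested genes, and 4 members had an unadjusted p under 0.05: Col4a2, Tagln, Thbs1 and Des. Col4a2 was at 62.4, 51.1, 51.8, 31.2 and 51.8 CPM in wildtype A to E and at 32.6, 26.5, 28.6 and 45.0 CPM in knockout A to D. On the Western diet Col4a2 was at 36.7, 51.5 and 63.3 CPM (lowest, median, highest) in wildtype and at 21.4, 50.1 and 66.9 CPM in knockout livers. The chow groups thus overlapped, with knockout A and D above wildtype D, and the fold change of Col4a2 on chow was -0.58 ± 0.23 (log2 ± SE; adjusted p = 1.00, edgeR). For Des, the muscle filament desmin that stellate cells of rodents carry, the chow groups did not overlap: 11.7, 10.2, 9.33, 8.73 and 12.04 CPM in wildtype A to E and 7.99, 8.21, 6.87 and 7.55 CPM in knockout A to D. Its fold change was -0.44 ± 0.22 (log2 ± SE; adjusted p = 1.00, edgeR).

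Thbs1, thrombospondin 1, which can activate latent TGF-beta, was at 7.17, 1.72, 4.71, 1.27 and 5.43 CPM in wildtype chow A to E and at 2.96, 0.611, 1.19 and 2.27 CPM in knockout chow A to D. High and low wildtype livers thus stood apart, with A, C and E above all 4 knockout livers and B and D within their range. The fold change of Thbs1 on chow was -1.19 ± 0.56 (log2 ± SE; adjusted p = 1.00, edgeR). Wildtype chow A and E also had the highest sums of 6 acute phase genes of hepatocytes, at 9533 and 17405 CPM, against 2518 to 3745 CPM in the other 7 chow livers. Without these 2 and the 5 wildtype Western diet livers with high acute phase genes, the chow fold change of Thbs1 was -0.51 ± 0.63, 12 of 41 members were positive, the median was -0.083 and 0 had an unadjusted p under 0.05. Of wildtype chow, that fit keeps only B, C and D, so its p values rest on fewer mice. Without the 4 livers out of place by diet, only Col5a2, Col6a3, Col5a1 and Postn were positive on chow. Col4a2 (-0.69 ± 0.26), Col15a1 (-0.93 ± 0.38), Col4a1 (-0.57 ± 0.27) and Timp3 (-0.78 ± 0.38) then had an unadjusted p of 0.011 to 0.049 (edgeR). Tagln, Thbs1 (-1.05 ± 0.64) and Des no longer had one under 0.05, and no member passed after adjustment. The part of the acute phase in the chow difference was not tested further.

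**Figure D3:**
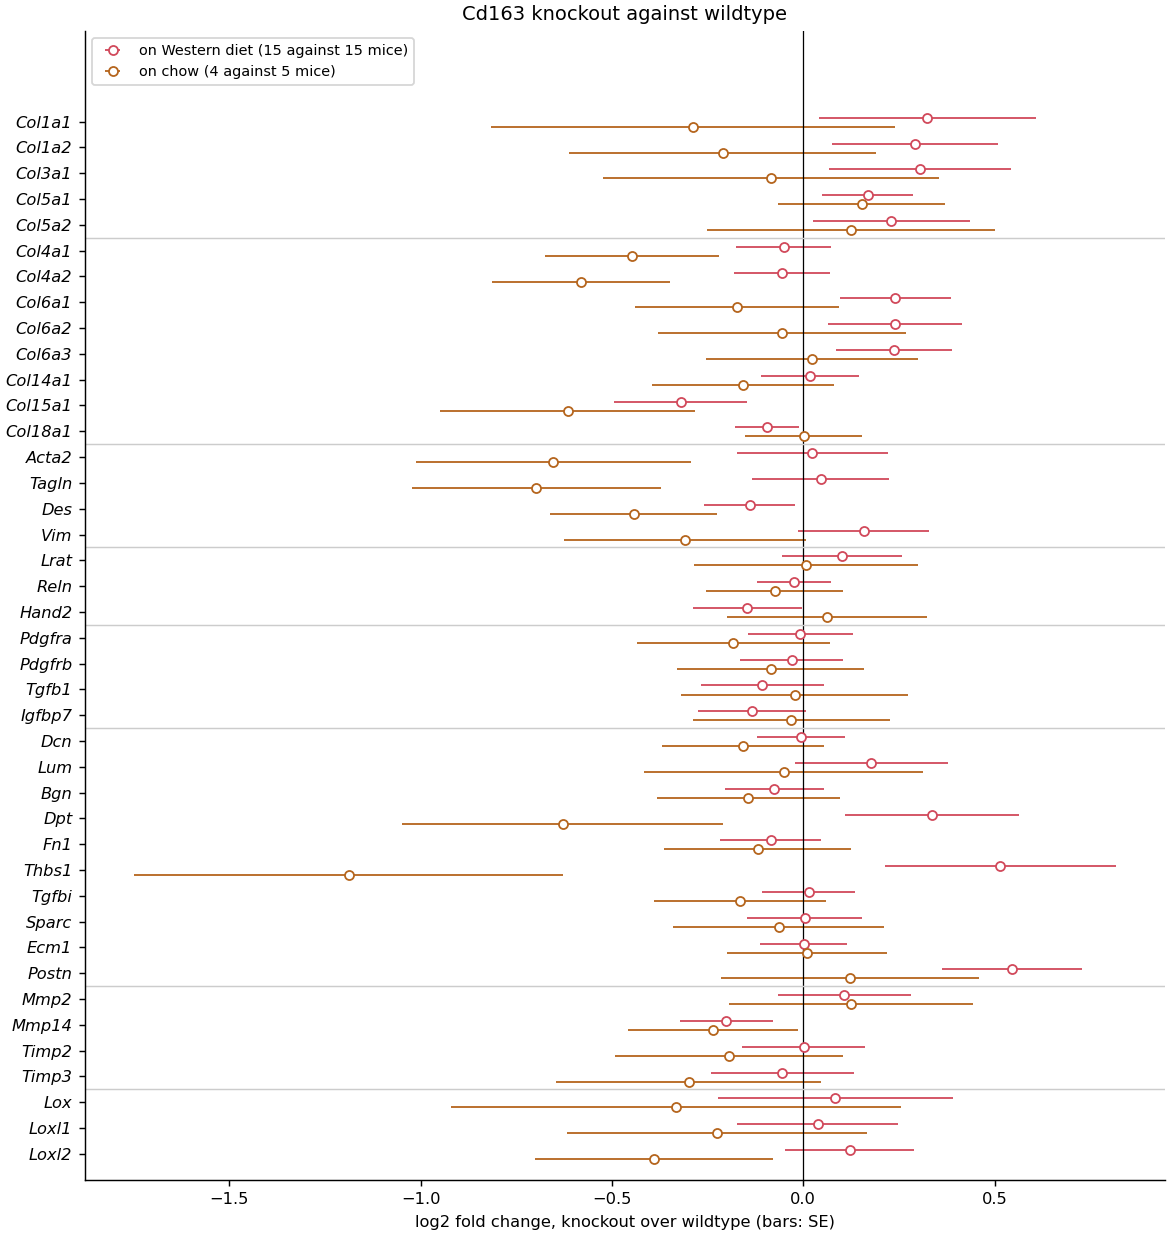
Log2 fold change of Cd163 knockout over wildtype (x axis, bars are SE) for the 41 tested members ordered by role (y axis), on the Western diet (15 against 15 mice) and on chow (4 against 5 mice). No value passed the threshold, the chow values lie mostly to the left of 0 with Thbs1 farthest at -1.19, and Postn is farthest to the right on the Western diet at 0.55.

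Averaged over diets, 0 of 41 members were called between genotypes, against 0.00654% of all tested genes. An unadjusted p under 0.05 was reached by 3 members, Col15a1 (-0.47 ± 0.19, log2 ± SE), Col4a2 (-0.32 ± 0.13) and Des (-0.29 ± 0.12).

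The interaction asks whether the diet difference itself differed between genotypes. It was called for 0 of 41 members by edgeR, DESeq2 or limma voom, against 0% of all tested genes, and 2 members had an unadjusted p under 0.05. These were Thbs1, with a difference between the 2 diet fold changes of 1.70 ± 0.64 (log2 ± SE; adjusted p = 1.00, edgeR), and Dpt, dermatopontin, a small matrix protein that binds decorin, with 0.97 ± 0.48. On the Western diet Thbs1 was at 1.06, 1.94 and 4.07 CPM (lowest, median, highest) in wildtype and at 0.689, 2.14 and 9.53 CPM in knockout livers. Dpt was at 9.78, 4.06, 5.45, 3.80 and 10.7 CPM in wildtype chow A to E and at 3.02, 3.05, 7.12 and 4.42 CPM in knockout chow A to D. On the Western diet Dpt was at 2.32, 4.17 and 7.24 CPM (lowest, median, highest) in wildtype and at 2.29, 4.43 and 15.5 CPM in knockout livers. Both genes were high in wildtype chow A and E, and had their highest knockout Western diet value in F.

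The interaction was positive for 35 of 41 members, with a median of 0.22 (log2) against 0.0032 over all tested genes, of which 50.8% were positive. It was positive for 40 of 41 members without the 4 libraries (median 0.37), for 29 without knockout Western diet F (median 0.10) and for 26 without the 7 wildtype livers with high acute phase genes (median 0.088). That last fit left out livers of 1 genotype only. It kept knockout Western diet E, whose acute phase sum of 12070 CPM was above those of wildtype chow A (9533) and wildtype Western diet F (11687), both left out. The contrast shares the chow groups of the comparisons above and its members vary together between livers, so the count of signs is a description.

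Knockout Western diet F stood apart from its group, and was picked out after its values were seen. It was the highest of 15 knockout Western diet livers for 31 of the 42 members. Col1a1 was at 145 CPM there, 6.02 times the median of the other 14 livers, whose highest was 55.0 CPM. Col3a1 at 212 CPM was 4.75 times their median, Thbs1 at 9.53 CPM 4.80 times, Lum, the proteoglycan lumican, at 21.5 CPM 3.95 times and Dpt at 15.5 CPM 3.62 times. Not all members were high in this liver: Fn1 was at 0.723 times and Col18a1 at 0.709 times the median of the others, and Acta2, at 9.30 CPM, lay within their range. The markers of activated stellate cells or myofibroblasts, which share 8 genes with the members, summed to 544 CPM in F and to 95.5 to 266 CPM in the others, and those of resting stellate cells to 355 against 163 to 332 CPM. Markers of recruited macrophages summed to 82.6 CPM in F against 17.4 to 33.7 CPM in the others, and those of Kupffer cells to 373 against 103 to 359 CPM. The sums for portal fibroblasts (46.9 CPM), mesothelium (15.7), sinusoidal endothelium (317) and hepatocytes (46563) lay within the range of the other livers. Of these, the portal fibroblast sum ranked 2 in the group, against a median of 26.7 CPM in the others. The erythroid sum of F, 95.8 CPM, was the lowest of the group, just below the 97.0 to 233 CPM of the others. F was also the deepest library, at 30438808 counts against at most 21141803 in the other 14. Whether depth or another cell type plays a part in these values was not tested.

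**Figure D4:**
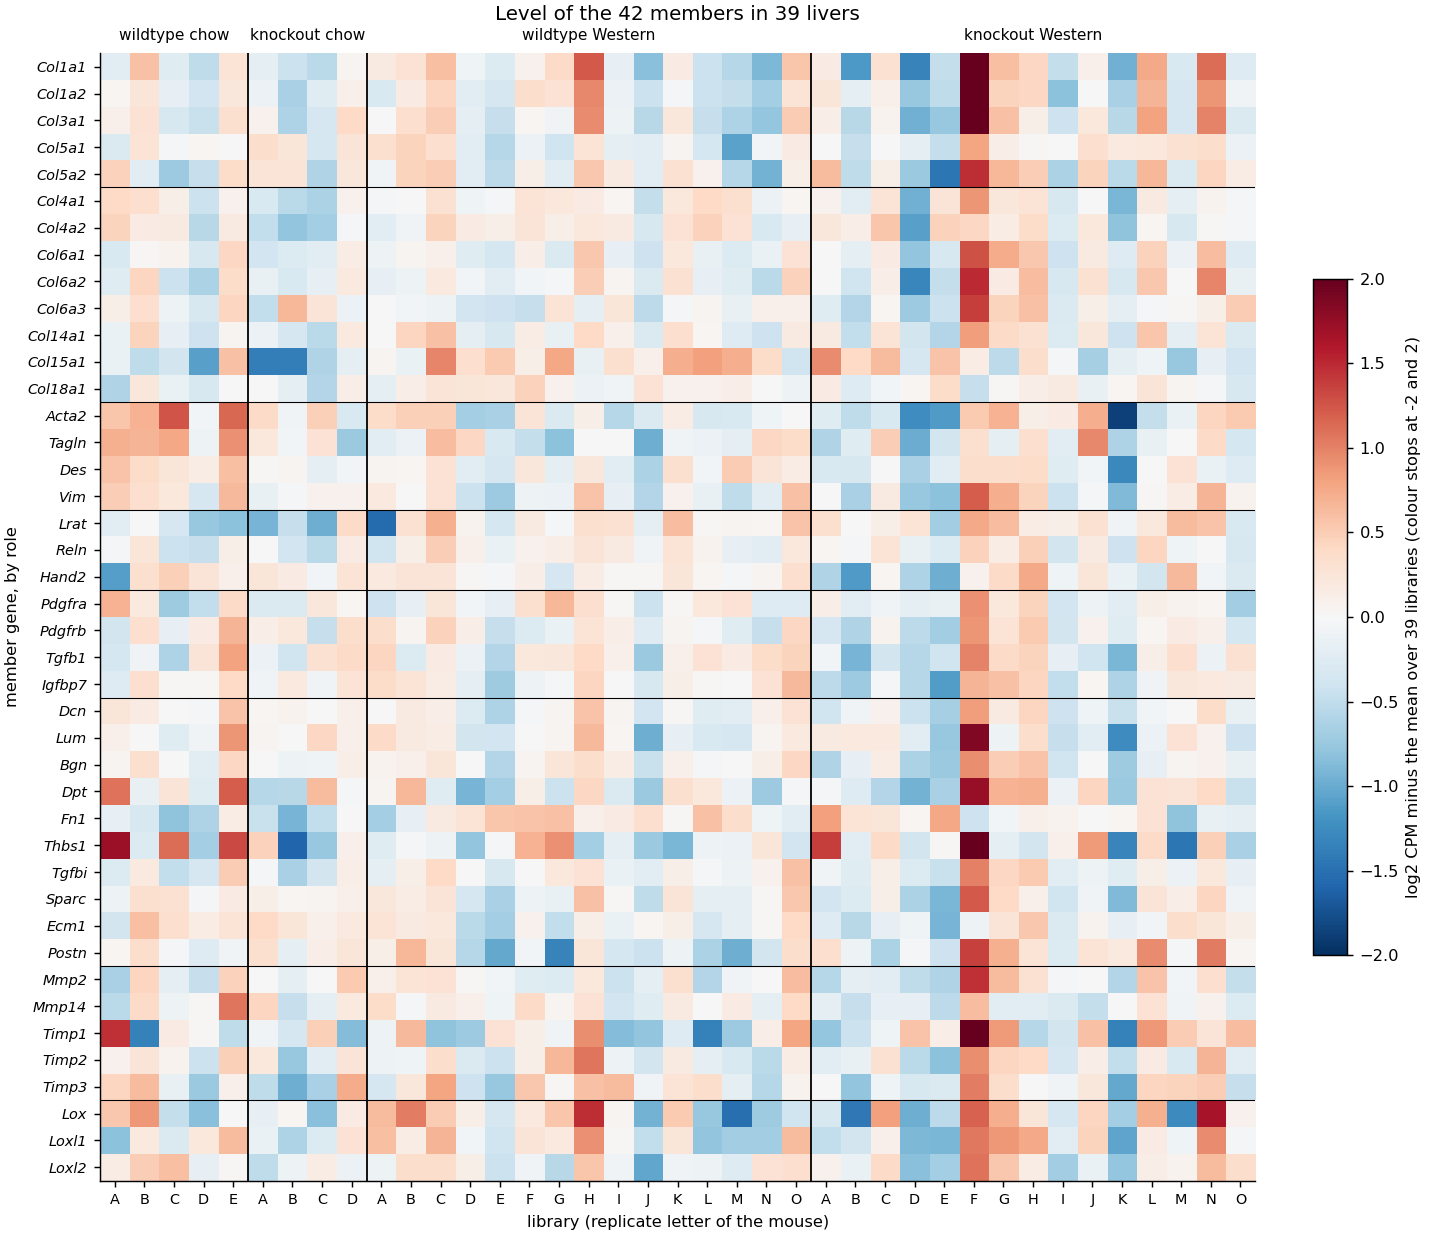
Level of each of the 42 members (rows, by role) in each of the 39 libraries (columns, by group and replicate letter) as log2 CPM minus the mean of the gene over all libraries, with the colour scale ending at -2 and 2. Knockout Western diet F is the darkest red column, highest of its group for 31 of 42 members, and knockout Western diet D, E and K are blue for most of them.

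The low end of the knockout Western diet group was shared by E, D and K, which had the lowest value of the group for 14, 10 and 8 members. In wildtype Western diet livers, H was the highest for 14 members and O for 9, and J the lowest for 10. Among chow livers, wildtype D was the lowest of its group for 24 members and wildtype E the highest for 20, while knockout D was the highest of its group for 26. Over the members, the median SD of log2 CPM was 0.36 in wildtype and 0.53 in knockout Western diet livers, and 0.45 in the knockout group without F. The knockout SD was the larger for 39 of 42 members, and for 34 without F. Over all tested genes it was the larger for 61.6%, and for 58.4% without F. The SD of Col1a1 was 0.57 in wildtype and 0.98 in knockout livers, and 0.73 without F.

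The third question is which members varied together between livers on the same diet and of the same genotype. In a family of 24 relations of Col1a1 with 12 members in the 2 Western diet groups (log2 CPM, 15 livers each), 14 had an adjusted p under 0.05 (2-sided permutation test of Pearson's r, Benjamini-Hochberg). Genes outside the list were not tested against Col1a1, so the 14 do not show whether members follow it more often than other genes. Col3a1 followed Col1a1 with r = 0.96 and rho = 0.94 in wildtype and r = 0.97 and rho = 0.94 in knockout livers, where p = 1e-05 is the smallest that the permutations can give (adjusted p = 6e-05). Col1a2, the other chain of type I collagen, had r = 0.93 and rho = 0.91 in wildtype (adjusted p = 6e-05, permutation test) and r = 0.95 and rho = 0.95 in knockout livers (adjusted p = 9.6e-05). Without the 2 livers farthest from the median of Col1a1 (H and N in wildtype, D and F in knockout), r was 0.93 and 0.93 for Col3a1, and 0.85 and 0.87 for Col1a2.

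Vim and the proteoglycan Dcn (decorin) also followed Col1a1 in both groups. For Vim, r was 0.81 in wildtype (rho = 0.85, adjusted p = 0.00096, permutation test) and 0.90 in knockout livers (rho = 0.85, adjusted p = 6e-05), and 0.81 and 0.85 without the 2 livers. For Dcn, r was 0.71 in wildtype (rho = 0.69, adjusted p = 0.00659, permutation test) and 0.81 in knockout livers (rho = 0.79, adjusted p = 0.00096), and 0.78 and 0.63 without the 2 livers. Fn1, which rose with the diet, had no called relation to Col1a1: r was -0.24 in wildtype (rho = -0.29, adjusted p = 0.415, permutation test) and -0.25 in knockout livers (rho = -0.20, adjusted p = 0.401). Lrat had r = 0.27 in wildtype (rho = 0.54, adjusted p = 0.384, permutation test) and r = 0.56 in knockout livers (rho = 0.54, adjusted p = 0.0533). Without wildtype Western diet A and knockout Western diet M, Lrat passed in both groups, with r = 0.61 (adjusted p = 0.0310, permutation test) and r = 0.63 (adjusted p = 0.0304).

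Another 6 members passed by Pearson's r in knockout livers and not in wildtype livers, and whether r differed between genotypes was not tested. By Spearman's rho, Acta2 passed in both groups (adjusted p = 0.0405 in each, permutation test). Timp1 passed by rho in neither (0.125 in knockout and 0.173 in wildtype livers). Tgfb1 had r = 0.77 in knockout (rho = 0.73, adjusted p = 0.00226, permutation test) and 0.39 in wildtype livers (rho = 0.34, adjusted p = 0.196). Col4a1 had r = 0.83 in knockout (rho = 0.78, adjusted p = 4e-04, permutation test) and 0.38 in wildtype livers (rho = 0.29, adjusted p = 0.207). Col6a3, a chain of microfibrillar type VI collagen, had r = 0.84 (rho = 0.77) and 0.18 (rho = 0.14), Des 0.65 (rho = 0.73) and 0.30 (rho = 0.23), and Acta2 0.61 (rho = 0.59) and 0.50 (rho = 0.59). Without D and F, the knockout r was 0.61 for Tgfb1, 0.66 for Col4a1, 0.58 for Col6a3, 0.57 for Des and 0.55 for Acta2. Timp1, at counts near 0 in most livers, had r = 0.68 in knockout livers (rho = 0.46, adjusted p = 0.0196, permutation test), 0.50 without D and F, and 0.53 in wildtype livers (rho = 0.41, adjusted p = 0.0603). On raw CPM, Acta2 (adjusted p = 0.111, permutation test) and Des (0.0758) no longer passed in knockout livers, whereas Timp1 in wildtype (r = 0.64) and Lrat in knockout livers (r = 0.61) did, both at an adjusted p of 0.0163. Col4a1 and Col4a2, the pair with adjoining start sites, were compared after their values were seen, and had r = 0.83 in wildtype (rho = 0.88, p = 1e-04, permutation test) and 0.90 in knockout livers (rho = 0.89, p = 4e-05).

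**Figure D5:**
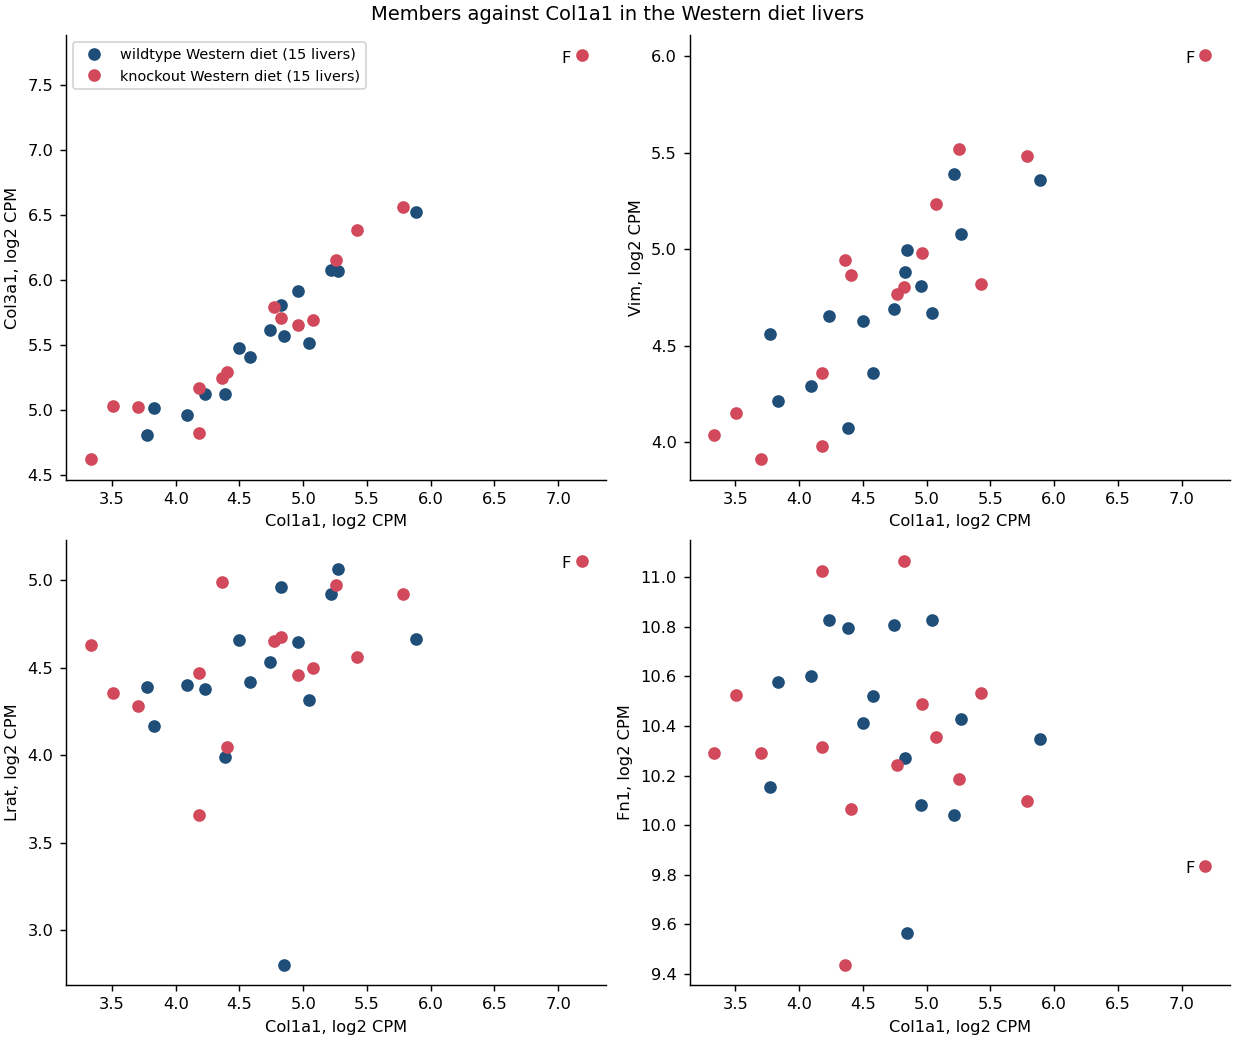
Log2 CPM of Col3a1, Vim, Lrat and Fn1 (y axes) against log2 CPM of Col1a1 (x axes) in 15 wildtype and 15 knockout Western diet livers, each point 1 liver, with knockout F marked. Col3a1 follows Col1a1 closely in both genotypes (r = 0.96 and 0.97), and the points of Fn1 are scattered (r = -0.24 and -0.25).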

How the data were processed

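RNA of 39 livers was sequenced in pairs after library preparation with the NEBNext Ultra kit, per the labels' protocols. The authors deposited raw counts per gene for each library, and the values are whole numbers from 0. Per the submitters' processing notes, the tools were STAR 2.7.8a, featureCounts 2.0, FastQC and MultiQC, with the build GRCm39. The release of the annotation and whether strand was used in counting are not given in the sources used here, so reads of overlapping and antisense genes cannot be told apart.

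Symbols were matched to identifiers through the GENCODE M21 annotation (GRCm38), which named 52083 of 55416 genes holding 99.4% of all counts and gave the exon lengths. In edgeR 4.0.16 (R 4.3.3) genes were kept by filterByExpr by group (minimum count 10, minimum total 15), libraries were scaled by TMM, and all 39 libraries entered 1 robust quasi-likelihood model of the 4 groups. Standard errors were derived from the F statistics. P values were adjusted by Benjamini-Hochberg over 15296 genes, with a threshold of 0.05. A log2 CPM has a prior count of 2. Permutation tests drew 100000 resamples in Python 3.11.15 with numpy 2.4.6, and figures used matplotlib 3.10.9. The fit was tested on simulated data.

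The members and gene lists were chosen with earlier results of these data known. Values in full are given for members called in a comparison, for the 2 with the smallest p in each of 7 comparisons and for the most abundant of each role, and other pathway genes are named where called or among the 3 smallest p of their list. Knockout Western diet F, Des on chow and the pair Col4a1 and Col4a2 were singled out after their values were seen. Alternatives were DESeq2 1.42.0, limma 3.58.1 voom with sample quality weights, RLE size factors, no filter, the replicate letter as a block, only the groups compared, and fits without single libraries, without 4 and without 7 libraries. Letters did not pair the mice: same-lettered wildtype and knockout Western diet livers had a mean correlation of -0.010, and 3 of 15 letters were over 0.1. On the Western diet, wildtype L and M were the most alike (a chi-square of 3.98 per gene, where the second closest pair had 10.4) and stayed 2 mice.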

Additional observations from a re-analysis of the deposited data

Results flagged for a closer look

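In 4 of 84 chow groups of a member gene (4.76%), 1 liver lay far from the others of its group by Dixon's criterion, which chance alone meets in about 1 of 20 groups. Col5a2, a chain of type V collagen, was at 2.54 CPM in knockout chow C, against 4.59 to 4.72 CPM in the other 3 livers. Timp3, a matrix-bound inhibitor of metalloproteinases, was at 11.5 CPM in knockout chow D, a liver that grouped with the Western diet, against 3.39 to 4.78 CPM. Lum was at 10.9 CPM in wildtype chow E, against 4.95 to 6.30 CPM in the other 4 livers. Tagln was at 1.83 CPM in wildtype chow D, against 3.26 to 3.84 CPM.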

How the results depend on the processing

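The count of 0 members called held for both genotype comparisons, their average and the interaction in all alternatives and in all 39 fits that left out 1 library. Between diets in wildtype mice, 1 member was called by DESeq2 and 1 with only the groups compared (Acta2 in both), 3 by limma voom and 3 without the 4 libraries, and 0 in each fit that left out 1 library. In knockout mice, 1 was called by limma voom and 4 without the 4 libraries, and 0 to 4 when 1 library was left out (4 without knockout chow D). Averaged over genotypes, 5 were called by limma voom and 7 without the 4 libraries, and 0 to 5 when 1 library was left out (0 without knockout chow B, 5 without knockout chow D). Those of limma voom were Fn1, Lrat and Col15a1 higher and Ecm1 and Acta2 lower. Those without knockout chow D were Fn1, Lrat, Col15a1 and Col18a1 higher and Acta2 lower. With the replicate block 4 members were called for that average: Fn1 and Col15a1 higher, Acta2 and Ecm1 lower, while Lrat had 0.46 (adjusted p = 0.148, edgeR). No called value changed sign. Of 2060 uncalled values under the alternatives, 199 (9.66%) changed sign. The number of Col1a1 relations past the threshold was 14 on raw CPM (with Acta2 and Des in knockout livers lost, and Timp1 in wildtype and Lrat in knockout livers gained), 15 with RLE size factors and 16 without wildtype Western diet A and knockout Western diet M. Depth limits Timp1, Lox, Thbs1 and Tagln most, and 4 against 5 chow mice limit every diet and chow comparison.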
